A study of Mus musculus with 6 samples.

Results

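The genes described here act in the early secretory pathway and were measured in cells sorted from mouse embryos: the COPI and COPII vesicle coats, the translocon, chaperones and oxidoreductases of the endoplasmic reticulum (ER), collagen-modifying enzymes, transcription factors of the unfolded protein response, and cargo receptors. Members were the probe sets with 1 gene symbol in the platform annotation that matched a listed gene. Of 54 listed genes, 51 matched by the listed symbol and 2 under a newer one (Ero1l as Ero1a, Leprel1 as P3h2), which gave 53 genes with 108 of the 45101 probe sets. Sec61g shared its probe set with other genes and was not used here, and the single probe set of Tmed2 was too dim to be tested, so 52 genes were tested among 12628.

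All embryos were heterozygous for the Noto-GFP reporter, in which GFP marks cells that express Noto, a homeobox gene of the node and notochord, on a mixed 129S3;ICR background, of mixed sex, and were collected at embryonic day 8.5 with a median somite number of 6. Tissue behind the newest somites was pooled, treated with 1% trypsin and separated by GFP fluorescence. GFP-positive and GFP-negative cells thus carried the same reporter allele and underwent the same handling. Each group held 3 arrays, 1 from each of 3 pools of 23, 39 and 52 embryos, and about 2600, 4300 and 6600 GFP-positive cells were sorted from these pools. The question was whether the secretory machinery differed between the cells that form the notochord and the other cells of the same tissue.

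Proteins for secretion enter the ER through the translocon, fold with the help of chaperones and oxidoreductases, leave in COPII vesicles and are recycled from the Golgi in COPI vesicles. When unfolded proteins accumulate, the factors Atf6, Xbp1 and Atf4 raise the transcription of stress response genes, chaperones among them, and the related factors Creb3l1 and Creb3l2 are known to serve matrix-secreting cells such as osteoblasts and chondrocytes. Notochord cells are known for secreting a sheath rich in collagens and laminins.

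Promoter sequences were examined because several members are classical targets of these factors. RefSeq (GRCm38.p6) windows from 250 bases before to 50 after a start were present for 43 of the 53 genes. The ER stress response element (a CCAAT box and a CCACG box at fixed spacing, on either strand) lay in the windows of 5 genes (11.6% of the 43), against 0.137% of all 27025 genes with a window. These were all 4 genes of the chaperone group and Pdia6. They are shown, 5′ to 3′ along the gene's strand, because they are the classical targets of Atf6 and Xbp1. Capitals mark the match, and the flanks are 10 bases, cut at the start where the match reaches it.
Hspa5, chr2:34772015-34772053, plus strand: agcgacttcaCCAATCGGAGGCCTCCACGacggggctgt
Hsp90b1, chr10:86705628-86705666, minus strand: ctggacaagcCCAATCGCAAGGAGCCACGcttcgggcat
Hsp90b1, chr10:86705523-86705561, minus strand: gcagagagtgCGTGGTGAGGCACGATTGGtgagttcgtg
Calr, chr8:84847065-84847103, minus strand: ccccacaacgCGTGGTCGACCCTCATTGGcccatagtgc
Canx, chr11:50325790-50325828, minus strand: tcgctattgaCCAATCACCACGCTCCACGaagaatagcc
Pdia6, chr12:17266481-17266519, plus strand: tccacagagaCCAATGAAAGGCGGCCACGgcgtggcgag

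The unfolded protein response element, TGACGTGG on either strand, lay in the windows of 5 other genes, against 0.714% of all genes. These were Kdelr3, Copb1, Copb2, Sec24d and, just after its start, Sec23a. The first 4 are shown because they include the member with the largest change and a pair of COPI subunits that differed in direction. The match of Copb2 ends on the start base, so no flank follows it.
Kdelr3, chr15:79516368-79516395, plus strand: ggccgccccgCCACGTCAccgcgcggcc
Copb1, chr7:114254691-114254718, minus strand: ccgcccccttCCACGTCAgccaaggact
Copb2, chr9:98563714-98563731, plus strand: cccggaagttCCACGTCA
Sec24d, chr3:123267460-123267487, plus strand: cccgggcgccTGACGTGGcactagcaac
The cyclic AMP response element TGACGTCA, which shares its first letters with this element, lay in 1 member's window, that of Cope, against 2.03% of all genes. The second ER stress element (ERSE-II) and the amino acid response element TGATGNAAT lay in 0 of the 43 (0.0444% and 1.08% of all genes). A match is a run of letters and not a shown binding site.

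The sort was checked with marker genes. All 7 node and notochord markers with a named probe set were higher in GFP-positive cells, among them Shh (5177 ± 562 against 271 ± 197, SD, n = 3) and Foxa2 (730 ± 213 against 27.8 ± 2.53), while Noto and T had no probe set named here. Of 6 lateral mesoderm markers 5 were lower (Tbx20 by the most, 67.9 ± 26.8 against 1822 ± 1031), with a summed intensity of 310 to 500 on GFP-positive and 1914 to 4451 on GFP-negative arrays. Of 5 endothelial and blood markers tested 2 were lower (5 with the pool as a block), with sums of 229 to 3019 over 6 genes against 5049 to 12875; Hbb-bh1 had the largest difference (1405 ± 1398 against 7000 ± 2700, past the threshold with the block alone). Sums of 7 gut and visceral endoderm markers overlapped between groups (429 to 2213 against 273 to 906) but were higher on the GFP-positive array within every pool (157, 398 and 123% of the GFP-negative array). Of these markers Afp alone passed, and only with the block (208 ± 151 against 53.4 ± 33.2, limma, adjusted p = 0.0107). Presomitic markers were higher (2351 to 3969 against 1223 to 1593, 2 of 6 past the threshold and 5 with the block, Hes7 among the latter at 654 ± 244 against 226 ± 122). Neural plate markers summed to 972 to 1485 against 2347 to 2641, mostly through Nkx1-2 (712 ± 274 against 1900 ± 295), and 1 of 5 was lower (3 with the block), while Sox2 did not pass in either fit (511 ± 20.4 against 459 ± 171). Both arrays of pool 1 had control-transcript 3′ over 5′ ratios of 14.0 to 22.7, against 1.60 to 2.75 on the other 4 arrays. The part of these cell types and of this ratio in the results below was not tested. In sorted populations, fewer cells of a type and less RNA per cell cannot be told apart.

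Few genes of the secretory machinery passed the test between the sorted populations. In limma's fit without the pool, 1 of the 52 genes, Kdelr3, was higher and 0 were lower at an adjusted p under 0.05. That is 1.92% of members, where 4.66% of all genes passed (2.95% higher and 1.71% lower). Before adjustment, p was under 0.05 for 4 members in the higher direction and 5 in the lower (7.69% and 9.62%, against 12.7% and 10% of all genes). Blocking on the pool added Creb3l2, Copb2 and Cope to the higher side, for 4 in all, and put Canx, Copb1 and Ero1a on the lower side, for 3. These are 13.5% of members, against 13.8% of all genes (7.76% higher and 5.99% lower). Both shares lie near or below the background of all genes, so the count says nothing particular about these genes. Leaving out the GFP-negative array of pool 1 gave 4 higher and 9 lower, or 25% of members, against 22.2% of all genes (11.3% higher and 10.9% lower). The median log2 fold change was 0.069 over members and 0.011 over all genes tested. Changes stayed within 0.5 on the log2 scale for 38 of 52 members (73.1%) and for 73.8% of all genes, and 2 members and 6.13% of all genes reached a change of 1.

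**Figure D1:**
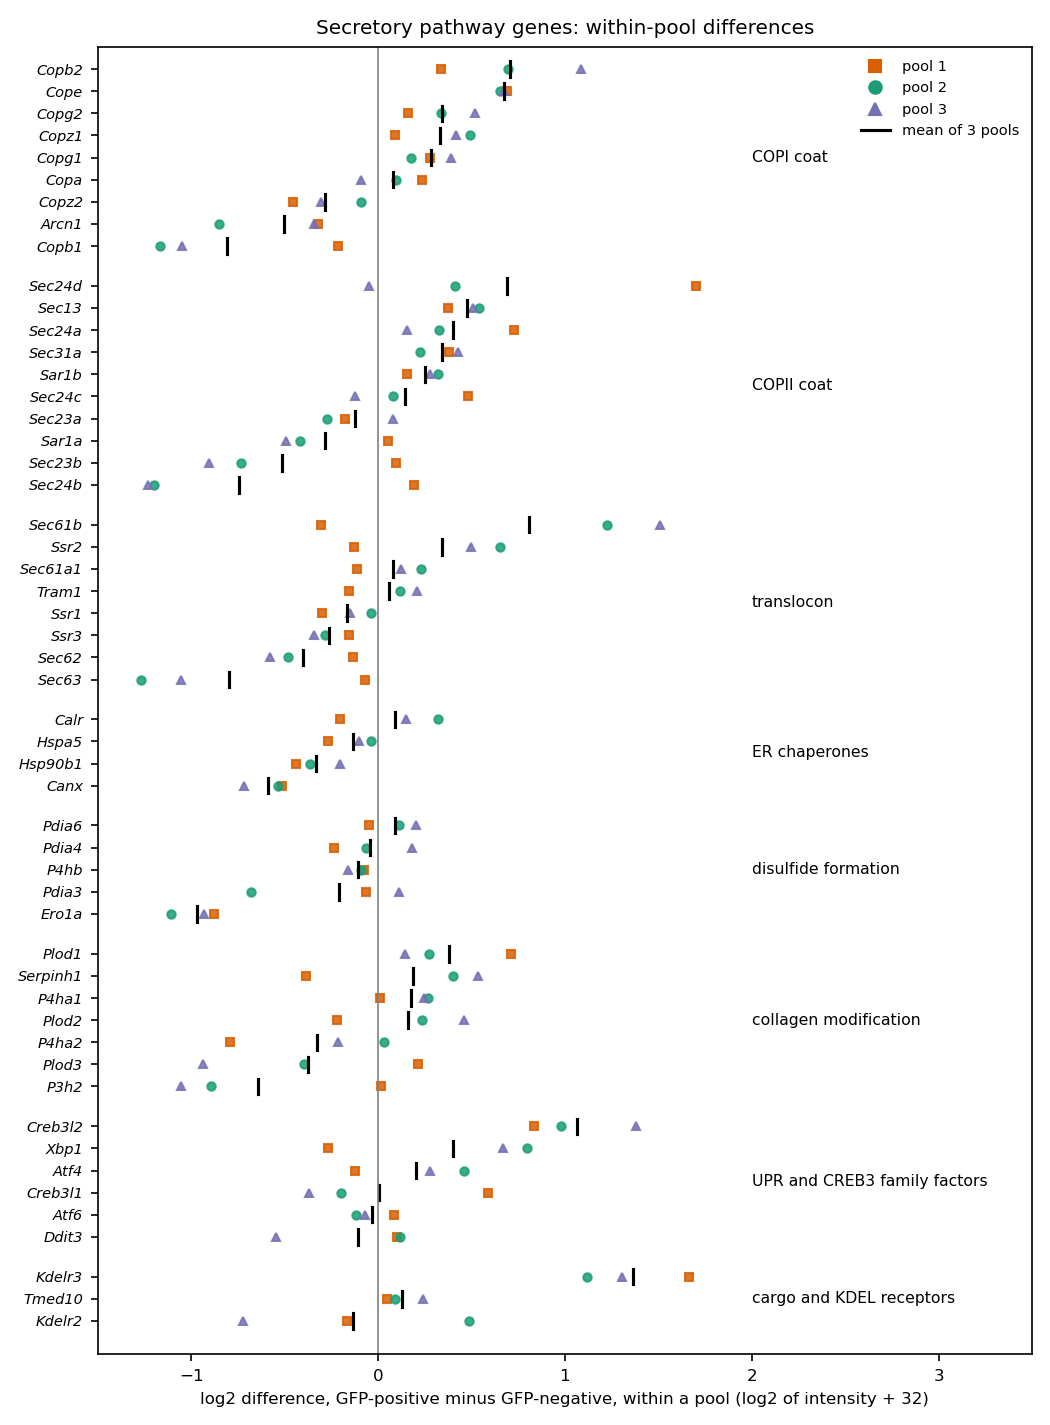
Log2 difference between the GFP-positive and the GFP-negative array of each pool (symbols) and the mean of 3 pools (bar) for the 52 tested genes, by functional group; the x axis is the difference of log2(intensity + 32). Most genes scatter around 0, Kdelr3 and Creb3l2 lie at 0.84 or above in every pool, and Ero1a lies at -0.88 or below in every pool.

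Among cargo and KDEL receptors, Kdelr3 was the member with the largest change. KDEL receptors return escaped ER chaperones from the Golgi by their C-terminal signal. Intensities of Kdelr3 were 166, 111 and 131 on the GFP-positive arrays of pools 1, 2 and 3, and 30.4, 33.7 and 33.9 on the GFP-negative arrays. The groups did not overlap, which held for 8 members (15.4%) in either direction and 27.7% of all genes, and with GFP-positive cells above for 5 members and 15.6%. The GFP-negative values lay little above the array medians (at most 28.0). Its log2 fold change was 1.36 ± 0.19 (SE, adjusted p = 0.00848 in limma, 0.00445 with the block), with 1.67, 1.12 and 1.31 within pools. The direction was the same without any 1 array, but the call was lost without GFP-positive array 3 (adjusted p = 0.057), GFP-negative array 2 (0.0578), pool 2 (0.24) or pool 3 (0.127).

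The paralogue Kdelr2 showed no such pattern. Intensities were 969, 997 and 756 on GFP-positive and 1090, 703 and 1266 on GFP-negative arrays, and its sign differed between pools (-0.17, 0.48 and -0.72). The log2 fold change was -0.13 ± 0.26 (limma, adjusted p = 0.788), and its second kept probe set pointed the other way (0.30). Tmed10, a p24 protein that carries cargo between ER and Golgi, had 0.13 ± 0.30. The p24 partner Tmed2 was between 4.61 and 11.0 on all 6 arrays and was not tested.

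Of the 6 transcription factors, Creb3l2 was the 1 that passed, and only with the block. Creb3l2 is an ER-bound factor, released by cleavage, that raises COPII genes such as Sec23a in cartilage. Its intensities were 369, 275 and 304 on GFP-positive and 192, 124 and 97.2 on GFP-negative arrays. Every GFP-positive array was above every GFP-negative array, and the mean was 316 ± 48.1 against 138 ± 49.2 (SD, n = 3). The log2 fold change was 1.07 ± 0.25 (limma, adjusted p = 0.0528), with 0.84, 0.98 and 1.38 within pools, and passed with the block (adjusted p = 0.0116). Its second kept probe set, which was dim at 31.4 to 82.1, had -0.056 ± 0.26, so the change rests on 1 probe set.

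Other factors of the unfolded protein response did not pass in either fit. Xbp1, whose mRNA is spliced on ER stress, had 1243, 1372 and 1644 on GFP-positive and 1500, 776 and 1022 on GFP-negative arrays. It was lower in pool 1 (-0.26) and higher in pools 2 and 3 (0.80 and 0.67), for a log2 fold change of 0.40 ± 0.26, and 1 of its 3 other kept probe sets had the opposite sign. Atf4, the translationally controlled factor of the stress response, had 0.21 ± 0.24. Its other kept probe set had 0.85 ± 0.39 (limma, adjusted p = 0.287, and 0.0701 with the block), with 0.030, 1.19 and 1.34 within pools. Atf6, Creb3l1 and Ddit3 were near the array medians, with intensities between 2.34 and 64.2. Their log2 fold changes were -0.032, 0.0075 and -0.11, signs that carry no direction, since quantile normalization turned that of Atf6 an offset of 64 that of Creb3l1, and leaving out GFP-negative array 3 that of Ddit3. Ddit3, which encodes the stress factor CHOP, was at 33.8 to 38.6 on GFP-positive and 28.6 to 64.2 on GFP-negative arrays.

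**Figure D2:**
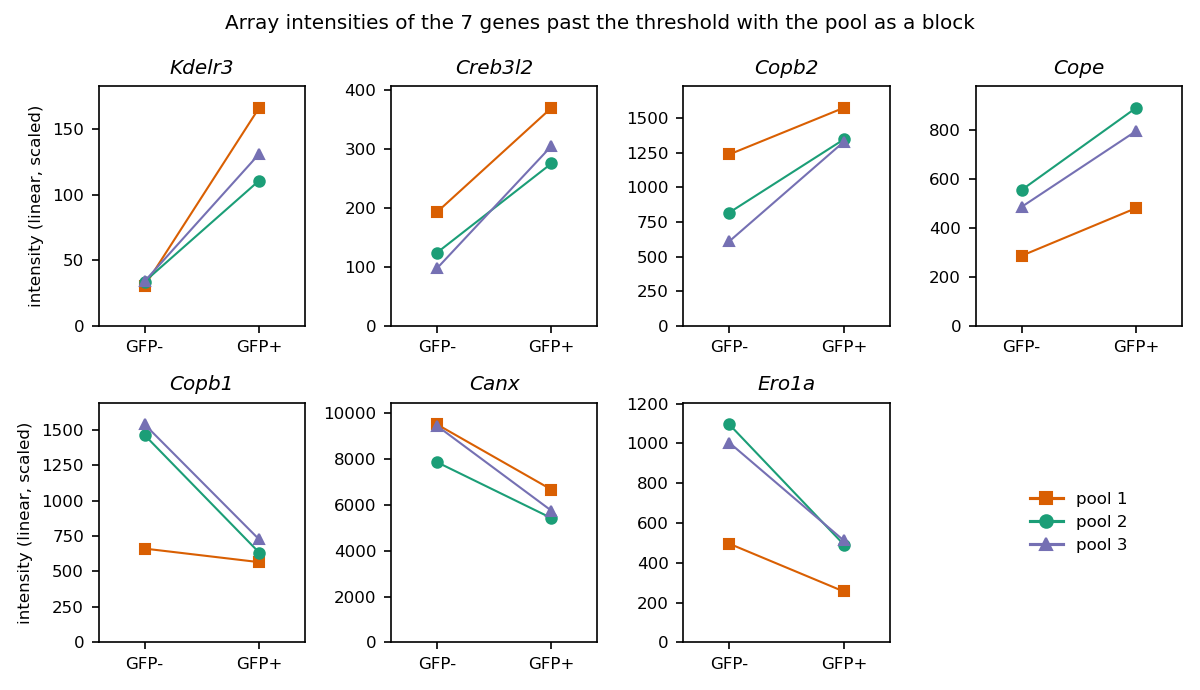
Linear array intensities (y axes from 0, each gene on its own scale) of the 7 genes past the threshold with the pool as a block; each line joins the GFP-negative and GFP-positive array of 1 pool. All 3 lines rise for Kdelr3, Creb3l2, Copb2 and Cope and fall for Copb1, Canx and Ero1a, and the Copb1 line of pool 1 is nearly flat (661 to 566).

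Chaperone genes with an ER stress response element in the windows printed above were near no change or lower. Hspa5, which encodes the main ER chaperone BiP, had 8219, 6637 and 7440 on GFP-positive and 9903, 6804 and 7976 on GFP-negative arrays. The groups overlapped, and its log2 fold change was -0.13 ± 0.18 (limma, adjusted p = 0.684), a sign that quantile normalization turned (0.078). Its other kept probe sets differed, at 0.20 ± 0.19 and -0.77 ± 0.29. Hsp90b1, or Grp94, had -0.33 ± 0.30, and the lectin chaperone Calr had 0.090 ± 0.21. Pdia6, the fifth gene with the element, had 0.089 ± 0.17.

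Canx, the membrane-bound lectin chaperone calnexin, was the chaperone that fell with the block. Its intensities were 6673, 5428 and 5750 on GFP-positive and 9524, 7874 and 9463 on GFP-negative arrays, without overlap. GFP-positive arrays lay below all GFP-negative arrays for 3 members and 12.2% of all genes. The log2 fold change of Canx was -0.59 ± 0.16 (limma, adjusted p = 0.0724, and 0.029 with the block), with -0.51, -0.53 and -0.72 within pools. Of its 2 other kept probe sets, 1 had the same sign (-0.56) and 1 the opposite (0.24).

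Of 5 genes of disulfide bond formation, Ero1a alone passed, and only with the block. Ero1a encodes the oxidase that recharges protein disulfide isomerase and is known to respond to low oxygen. Intensities of Ero1a were 256, 492 and 512 on GFP-positive and 496, 1096 and 1005 on GFP-negative arrays, so that the GFP-positive array was lower in each pool and the pool 1 array was the lowest of its group in both groups. The log2 fold change was -0.97 ± 0.36 (limma, adjusted p = 0.162), with -0.88, -1.11 and -0.93 within pools, and passed with the block (adjusted p = 0.0107). Its 2 other kept probe sets had the same sign (-0.55 and -0.61).
No protein disulfide isomerase passed in either fit. P4hb, the isomerase that is also the beta subunit of prolyl 4-hydroxylase, had 5703 ± 476 against 6165 ± 675 (SD, n = 3) and a log2 fold change of -0.11 ± 0.16, whose sign turned with quantile normalization (0.028). Pdia4 and Pdia3 had -0.040 ± 0.27 and -0.21 ± 0.44.

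In the COPI coat, subunits differed in direction. Of 9 subunits tested, 0 passed without the block; with it Copb2 and Cope were higher, Copb1 was lower and 6 did not pass. Copb1 and Copb2, beta and beta-prime subunits of the same complex, had log2 fold changes of -0.81 ± 0.32 and 0.71 ± 0.27 (limma, adjusted p = 0.185 and 0.164; with the block 0.0462 and 0.0447).
Copb1 had 566, 633 and 726 on GFP-positive and 661, 1462 and 1537 on GFP-negative arrays. The pool 1 GFP-negative array lay among the GFP-positive arrays, so the groups overlapped, and differences within pools were -0.21, -1.17 and -1.05. Copb2 had 1572, 1345 and 1327 on GFP-positive and 1236, 817 and 609 on GFP-negative arrays, without overlap, and its other kept probe set had the same sign at 0.24 ± 0.31. Cope, the epsilon subunit, had 481, 890 and 795 against 286, 554 and 485. Its difference was alike in every pool (0.69, 0.65 and 0.68), while its level was lower on both pool 1 arrays. The log2 fold change of Cope was 0.67 ± 0.31 (limma, adjusted p = 0.247). With the block its standard error was 0.15 (limma, adjusted p = 0.031).
The remaining subunits lay between -0.51 ± 0.31 for Arcn1, the delta subunit, and 0.34 ± 0.22 for Copg2, a gamma subunit. Arcn1 was lower in all 3 pools. Of its other kept probe sets, 1 had -0.999 ± 0.47 and passed with the block (limma, adjusted p = 0.0155), unlike the brightest. The other had -0.065 ± 0.29, with 0.81, -0.62 and -0.39 within pools, so its sign carries no direction. Copg1, Copg2 and Copz1 were higher in all 3 pools (0.28, 0.34 and 0.33), and Copz2 was lower in all 3 (-0.28). A sign shared by all 3 pools was seen in 26 of 52 members (14 higher and 12 lower) and 53.3% of all genes (28.4% and 24.9%).

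No gene of the COPII coat passed in either fit. Of the 10 genes, Sec13, of the outer cage, had the lowest adjusted p with the block and Sec24b the lowest without it (0.179, limma). Sec13 had 1001, 1340 and 1210 on GFP-positive and 764, 910 and 840 on GFP-negative arrays. These did not overlap, and the log2 fold change was 0.48 ± 0.20 (limma, adjusted p = 0.198, and 0.0756 with the block). Sec23a, the inner coat gene known as a Creb3l2 target in cartilage, had 542, 447 and 477 against 616, 546 and 450, with -0.12 ± 0.20. Its level overlapped between groups, and a link between Sec23a and Creb3l2 in these cells was not tested.
The 4 cargo-binding Sec24 paralogues had differing values. Log2 fold changes were 0.69 ± 0.41 for Sec24d, 0.40 ± 0.25 for Sec24a, 0.15 ± 0.24 for Sec24c and -0.75 ± 0.29 for Sec24b. Sec24d, which exports procollagen in the skeleton, rested on 1 array: its pool 1 GFP-positive array read 1250, and the remaining 5 arrays read 288 to 500. Without pool 1 its value was 0.18. Sec24b showed the opposite dependence, with 0.19 in pool 1 and -1.20 and -1.23 in pools 2 and 3, and its value was -1.21 without pool 1. Sec23b, the second inner coat paralogue, had 0.095, -0.73 and -0.91 within pools.
The GTPase paralogues that start the coat, Sar1a and Sar1b, had -0.29 ± 0.27 and 0.25 ± 0.21, and Sec31a, of the outer cage, had 0.34 ± 0.26.

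No translocon gene passed in either fit. Sec61b, the beta subunit of the channel, had 4665, 4484 and 4165 on GFP-positive and 5766, 1899 and 1443 on GFP-negative arrays. Its GFP-positive arrays were alike, whereas the GFP-negative array of pool 1 was the highest of the 6. The log2 fold change was 0.81 ± 0.44 (limma, adjusted p = 0.312), with -0.30, 1.23 and 1.51 within pools. Sec63, which couples the channel to BiP, had 400, 257 and 248 against 422, 663 and 549, without overlap, for -0.80 ± 0.26 (adjusted p = 0.12, and 0.0671 with the block), and all 4 other kept probe sets had the same sign. Sec62 had -0.40 ± 0.23. The channel subunit Sec61a1 had 4275 ± 114 against 4056 ± 401 (SD, n = 3), and of its 5 other kept probe sets 3 had the opposite sign. Ssr1, Ssr2 and Ssr3, of the translocon-associated complex, had -0.16, 0.34 and -0.26, and Tram1, a membrane protein beside the channel, had 0.059.

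Collagen-modifying genes did not pass in either fit. Serpinh1, the collagen chaperone Hsp47, had 1890, 2824 and 2921 on GFP-positive and 2478, 2129 and 2002 on GFP-negative arrays. It was lower in pool 1 (-0.38) and higher in pools 2 and 3 (0.40 and 0.54), with a log2 fold change of 0.19 ± 0.22. Its other kept probe set had 1.07 ± 0.45 and differed in the same directions (-0.36, 1.29 and 2.26). Prolyl 4-hydroxylase subunits P4ha1 and P4ha2 had 0.18 ± 0.25 and -0.33 ± 0.27. Lysyl hydroxylases Plod1, Plod2 and Plod3 had 0.38 ± 0.39, 0.16 ± 0.25 and -0.37 ± 0.40.
P3h2, a prolyl 3-hydroxylase of basement membrane collagen, had 78.7, 87.8 and 99.4 on GFP-positive and 77.6, 191 and 240 on GFP-negative arrays. The pool 1 arrays were nearly equal (0.014) and the other pools lower (-0.89 and -1.05), for -0.64 ± 0.33 (limma, adjusted p = 0.28).

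The median share of variation held by pool was higher over members than over all genes, which was not tested. Pool held a median of 61.8% of a member's sum of squares over the 6 arrays and the sort 20.8%, against 38.3% and 29.9% over all genes. Pool has 3 levels and the sort 2, which favours pool in every gene; its share was the larger in 37 of 52 members (71.2%) and in 55.2% of all genes. Both pool 1 arrays lay below the other 4 for 20 members (38.5%, against 19.1% of all genes) and above them for 7 (13.5%, against 14.3%). In 17 members the difference in pool 1 had the sign opposite to that shared by pools 2 and 3, a share of 32.7% against 26.8% of all genes. Sec61b, Sec24b, Xbp1, Serpinh1 and P3h2 are among them. The high 3′ over 5′ ratios of pool 1 go with these values, and their part was not tested.

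**Figure D3:**
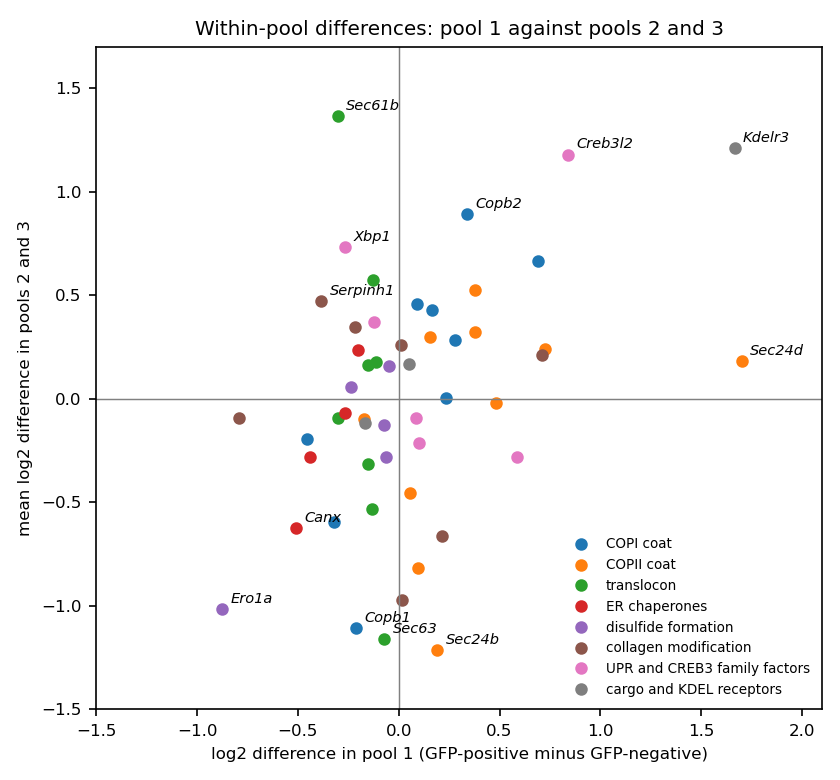
Log2 difference between GFP-positive and GFP-negative arrays in pool 1 (x axis) against the mean of the differences in pools 2 and 3 (y axis), 1 point for each of the 52 genes, coloured by group. Kdelr3 and Creb3l2 lie high on both axes and Ero1a low on both, whereas Sec61b and Sec24b are far from 0 only on the y axis and Sec24d only on the x axis.

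Without pool 1, many more genes passed, members and others alike. Of the 52, 10 were higher (Kdelr3, Creb3l2, Copb2, Cope, Copz1, Sec13, Sec61b, Ssr2, Serpinh1 and Xbp1) and 11 lower (Canx, Copb1, Arcn1, Sec23b, Sec24b, Sar1a, Sec62, Sec63, Ssr3, Ero1a and P3h2). Together these were 40.4% of members, beside 38.3% of all genes (20.1% higher and 18.2% lower). All 7 genes that passed with the block are among these. For Ssr3 the brightest kept probe set changed without pool 1, so its call (-0.45) was for its other kept probe set. With 2 arrays a group, the spread was estimated from pools 2 and 3 alone. With both the block and pool 1 left out, 12 were higher and 12 lower, or 46.2% against 44.9% of all genes.

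Further genes of the pathway also passed at about the rate of all genes while pool 1 was kept. Of 120 further genes listed, from the signal recognition particle to ER-associated degradation, 111 were tested. Without the block 3 rose and 2 fell; blocking on the pool brought these counts to 8 and 6. These are 4.5% and 12.6%, against 4.66% and 13.8% of all genes. Without pool 1, 33 of 108 were higher (30.6%, against 20.1% of all genes) and 15 lower (13.9%, against 18.2%). Arfgap3, which promotes GTP hydrolysis on COPI vesicles, had 161, 176 and 209 on GFP-positive and 42.9, 66.6 and 69.3 on GFP-negative arrays. It rose by 1.23 ± 0.21 (limma, adjusted p = 0.0174). Fkbp14, a prolyl isomerase for procollagen, and Txndc11, an ER thioredoxin-like protein, rose by 0.94 ± 0.21 and 0.93 ± 0.22 (adjusted p = 0.0435 and 0.0494). The collagen processing genes Adamts3, a procollagen protease, and Pcolce, an enhancer of procollagen cleavage, fell by 0.93 ± 0.17 and 0.76 ± 0.15 (adjusted p = 0.0246 and 0.0346). Both were dim, at most 37.4 and 23.3 on GFP-positive arrays. All 5 calls were lost whichever single array of pool 2 or pool 3 was left out, with 0 of 111 genes higher and 0 lower each time. Dropping the GFP-positive array of pool 1 gave 4 higher and 0 lower, and dropping its GFP-negative array gave 15 and 12. With 1 array left out, the highest adjusted p in limma was 0.119 for Arfgap3 and 0.222 for Txndc11.
Those that passed with the block alone included Trappc3, of a tethering complex (0.91), Ganab, a glucosidase of glycan trimming (1.08), Ero1b, the paralogue of Ero1a (0.85), and Arf5, a GTPase of the Golgi (1.05). Ero1b thus rose in the fit in which Ero1a fell. Tfg, a protein of ER exit sites (-0.85), Tmed5, a p24 protein (-0.68), and Mbtps2, the protease that activates Atf6 (-0.74), were lower with the block. Of 22 genes of stress sensors and ER-associated degradation, 0 passed without the block and Mbtps2 alone with it.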

How the data were processed

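The deposited values are 1-colour Affymetrix array intensities on a linear scale, made with GCOS 1.4 per the submitters' processing notes. All 6 arrays share a 2% trimmed mean of 150.001, a global scaling. RNA was amplified before labelling, per the labels' protocols. The tests used log2(intensity + 32), which understates fold changes of dim genes. Probe sets at or above the 40th percentile of an array on at least 3 arrays were kept, each gene was represented by its brightest kept probe set, and 12628 genes were fitted with limma 3.58.1 (R 4.3.3; eBayes with trend) with group as the only term. P-values were adjusted by Benjamini-Hochberg over all genes, with a threshold of 0.05. Errors of log2 fold changes are limma's standard errors from the fit without the pool, unless the block is named. They therefore include differences between pools. Errors of intensities are SDs over 3 arrays, and precision is limited by having 3 arrays a group. Same-numbered arrays come from the same embryo pool, per the labels, and after removing group means they correlated at 0.542, 0.286 and 0.436 (-0.523 to 0.38 between different pools), so the fit with the pool as a block is given where it changes a call of a member or a count. Alternatives were the offset, normalization, filter, variance model, probe set choice, threshold, and each array or pool left out. The fit was tested on simulated data. Members and gene lists were chosen with earlier results of these data known. Named genes were all members and, of each list of other pathway genes, up to 3 with the smallest adjusted p among those that passed in either fit. Of the markers, Shh, Foxa2 and the gene with the largest change in each list were named with values, as was Sox2 outside this rule. Per-sample columns left unused numbered 0.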

Additional observations from a re-analysis of the deposited data

How the results depend on the processing

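Counts over 52 members and 111 further pathway genes (108 without pool 1) moved most with the pool. The block gave 4 members higher and 3 lower, and 8 and 6 further genes; with the block and without pool 1 (added after seeing the data) it gave 12 and 12, and 38 and 18. Leaving out 1 array or pool gave 0 to 10 members higher and 0 to 11 lower, and 0 to 33 and 0 to 15 further genes. A filter at the 60th percentile, no variance trend and an adjusted p under 0.1 each gave 2 members higher, the last also 1 lower. Further genes numbered 5 higher at that threshold, 1 higher and 0 lower without a filter, 1 higher with gene-specific probe sets, and 1 lower with quantile normalization. The causes were not tested.

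Among members, signs turned for genes that had not passed, with log2 fold changes between -0.37 (Plod3) and 0.40 (Xbp1). Averaging probe sets gave log2 fold changes of -0.093 for Sec24c, -0.089 for Sec61a1, -0.20 for Tram1, -0.11 for Pdia6, -0.036 for Plod2, 0.087 for Atf6 and 0.081 for Kdelr2. Quantile normalization gave 0.078 for Hspa5, 0.028 for P4hb and 0.043 for Atf6, an offset of 64 gave -0.014 for Creb3l1, and gene-specific probe sets gave -0.17 for Xbp1. The block without pool 1 gave -0.021 for Sec24c, 0.058 for Pdia4 and -0.28 for Creb3l1. With 1 array or pool left out, the ranges that crossed 0 were -0.10 to 0.26 for Copa, -0.098 to 0.33 for Sec24c, -0.32 to 0.052 for Ssr1, -0.024 to 0.19 for Tram1, -0.26 to 0.0072 for Hspa5, -0.065 to 0.30 for Calr, -0.65 to 0.16 for Pdia3, -0.19 to 0.21 for Pdia4, -0.059 to 0.67 for Plod1, -0.81 to 0.050 for Plod3, -0.33 to 0.24 for Creb3l1, -0.092 to 0.039 for Atf6, -0.24 to 0.11 for Ddit3, -0.44 to 0.16 for Kdelr2 and -0.098 to 0.39 for Tmed10. Kdelr3 kept its direction in every alternative run, as did Creb3l2, Copb2, Cope, Canx, Copb1, Ero1a and further members. There were 3 arrays a group, and some members lay near the array median.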
